A study of Mus musculus with 18 samples.

Results

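Mx1, Mx2, Bst2, Ly6e, Ifitm1, Ifitm2, Ifitm3, Ifi27, Apol9a and Apol9b are 10 of the 55414 genes in the count table. They were chosen by name, as the Mx proteins and the membrane-associated restriction factors of the interferon response, with earlier results of these data known. All 10 were measured and passed the filter of at least 10 counts over all libraries. Their RNA was read in differentiated C2C12 cells, a mouse myoblast line that fuses into myotubes, as 18 poly(A)-selected, strand-specific libraries in 6 groups of 3. Before differentiation, confluent myoblasts received a pool of siRNAs that was non-targeting (siNtc) or directed at Erk3 (siErk3; the gene Mapk6) or at its partner kinase Mk5 (siMk5; the gene Mapkapk5). After 6 days, the medium of each kind of myotube was changed to a serum-free one that held 0.5 mM palmitic acid bound to BSA (PA) or the BSA carrier alone (BSA) for 16 h. All groups therefore share the cell line, the transfection and the BSA carrier, and the system is a single cell line in culture. The sources used here do not say whether the 3 libraries of a group came from separate cultures, so p-values measure the spread between these samples, which may be technical.

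Type I interferon made by a cell binds its receptor on that cell and its neighbours and activates transcription factors, Stat2 and Irf9 among them, that act at interferon-stimulated response elements in the promoters of effector genes. Among these effectors, Mx1 and Mx2 are dynamin-like GTPases that trap viral components. Bst2 (tetherin) ties budding virions to the plasma membrane, Ly6e is a GPI-anchored surface protein that limits the entry of some viruses, and the Ifitm proteins hinder fusion of viral and cellular membranes. Ifi27 is a small hydrophobic interferon-induced protein of intracellular membranes, and Apol9a and Apol9b are mouse members of the apolipoprotein L family, which bind lipids.

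The start regions of the genes are given first because 5 of the 6 members with a sequence in the RefSeq promoter table (GRCm38.p6) hold the core of the response element. Each table entry covers 250 bases before and 50 after an annotated start, and entries were found for Bst2, Ifitm1, Ifitm2, Ifitm3, Apol9a and Apol9b, with Apol9a and Apol9b having 2 starts each. The core searched was GAAANNGAAA, on both strands and with overlapping matches counted. It is present in 1131 of all 32851 windows (3.44%), or in at least 1 window of 1079 of 27025 genes (3.99%). The stretches that carry it are printed on the gene's strand, with the matched bases in capitals.
Bst2, chr8:71537543-71537642, minus strand, bases -170 to -71: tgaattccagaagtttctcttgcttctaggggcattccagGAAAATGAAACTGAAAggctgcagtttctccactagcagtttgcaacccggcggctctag
Apol9a, chr15:77411081-77411180, minus strand, bases -100 to -1: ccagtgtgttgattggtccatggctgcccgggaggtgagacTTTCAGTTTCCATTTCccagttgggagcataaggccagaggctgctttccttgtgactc
Apol9b, chr15:77728972-77729071, plus strand, bases -100 to -1: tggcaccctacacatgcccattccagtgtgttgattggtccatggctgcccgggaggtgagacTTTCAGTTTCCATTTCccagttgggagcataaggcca
Ifitm2, chr7:140955962-140956061, minus strand, bases -100 to -1: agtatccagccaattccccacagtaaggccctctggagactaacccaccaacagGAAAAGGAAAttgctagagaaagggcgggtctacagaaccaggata
Ifitm3, chr7:141010715-141010744, minus strand, bases 1 to 30: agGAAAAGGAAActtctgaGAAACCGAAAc

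Bst2 holds 2 overlapping matches on its own strand, beginning 130 and 124 bases before the start. Apol9a and Apol9b hold an overlapping pair on the opposite strand, and their windows share an identical stretch of 278 of 300 bases. Ifitm3 holds 2 separate matches just downstream of its start, and Ifitm2 holds 1 match that begins 46 bases upstream. The Ifitm1 window holds no match, which says only that these letters are not in this window. The gamma-activated site TTCNNNGAA, searched on both strands, was found in 2726 windows (8.30%), and among the members in Bst2 and Ifitm3, where it overlaps a response element core. These matches describe the letters of the reference and not binding in these cells.

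**Figure D1:**
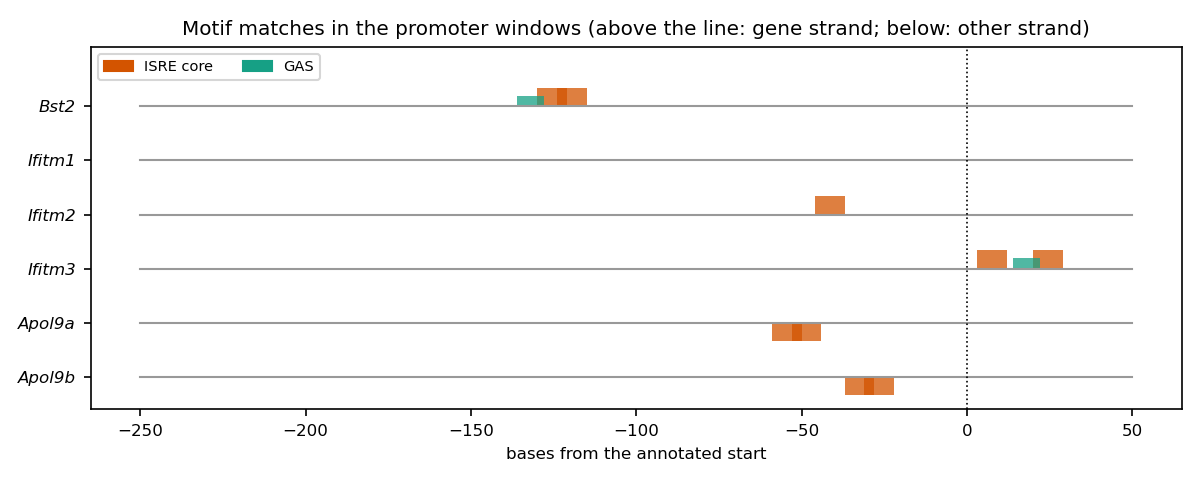
Positions of the response element core (ISRE core) and the gamma-activated site (GAS) in the 6 RefSeq promoter windows, with bases from the annotated start on the horizontal axis and one line per gene (the table's first start for Apol9a and Apol9b). Boxes above a line are on the gene's strand and boxes below it on the opposite strand; Bst2 has its pair near -130, Ifitm3 has both of its cores just after the start, and Ifitm1 has no box.

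Total counts ranged from 13041979 to 28496727 per library (median 22417470), so counting error falls mainly on Mx1 in BSA. Mapk6 was lower in siErk3 than in siNtc in both media, with log2 fold changes of -1.21 ± 0.059 (SE; FDR = 1.77e-14) in BSA and -0.95 ± 0.056 (FDR = 1.21e-12) in PA. Mapkapk5 was low everywhere, at 1.18 to 3.92 CPM (counts scaled to the library total, adjusted by TMM). It lay below all siNtc libraries in every siMk5 library of the same medium. Its values of -0.61 ± 0.21 in BSA and -0.49 ± 0.18 in PA had an FDR of 0.469 each and did not pass the test. For the proteins, the paper reports Western blots with effective silencing of both kinases, and less Erk3 protein after Mk5 silencing. Protein was not examined here. The 10 myotube markers summed to between 12000 and 16500 CPM in every library, and the 6 macrophage markers to between 1.72 and 2.7 CPM, with 1 of them at 0 throughout. Single myotube markers did move with siErk3: 3 of the 10 were called higher in BSA (0.588% of all tested genes), Myh3 (1.31-fold), Myh8 (1.48-fold) and Actn2 (1.39-fold), and Myh8 and Actn2 also in PA. They are named here after their values were seen, and their part in the siErk3 results was not tested. The share of counts on 18S ribosomal RNA was highest in siMk5 BSA (8.39 to 12.9%) and lowest in siErk3 BSA (1.5 to 2.96%), against 2.56 to 7.17% in siNtc BSA and 1.71 to 6.77% over the PA libraries. In these bulk samples a change in the RNA per cell and a change in the number of expressing cells cannot be told apart.

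Comparisons used edgeR's quasi-likelihood test over all 18 libraries, and a gene is called changed at an FDR (Benjamini-Hochberg adjusted p over 21772 genes) below 0.05 and a fold change above 1.3. In BSA, silencing Erk3 raised 6 of the 10 genes and lowered 0, against a background of 0.588% of all tested genes called higher. The 6 were Mx2, Bst2, Ly6e, Ifi27, Apol9a and Apol9b, and with the 18S share in the model the count was again 6. In PA, silencing Erk3 raised 4 (background 0.432%), namely Mx1, Bst2, Ly6e and Apol9a. Silencing Mk5 changed 0 of the 10 in BSA (background 0.0643% in either direction) and lowered 5 in PA (background 0.491%), namely Mx1, Mx2, Bst2, Ly6e and Apol9a. The count of 0 in BSA was the same with DESeq2, and 1 member, Mx1, had an unadjusted p under 0.05. For that level the share of all tested genes is not given here. The median log2 fold change of the 10 genes, beside that of all tested genes, was 0.43 beside 0.019 for siErk3 in BSA, 0.335 beside -0.004 for siErk3 in PA, 0.01 beside 0.014 for siMk5 in BSA and -0.378 beside 0.002 for siMk5 in PA. The siErk3 and siMk5 comparisons of a medium share their siNtc libraries.

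**Figure D2:**
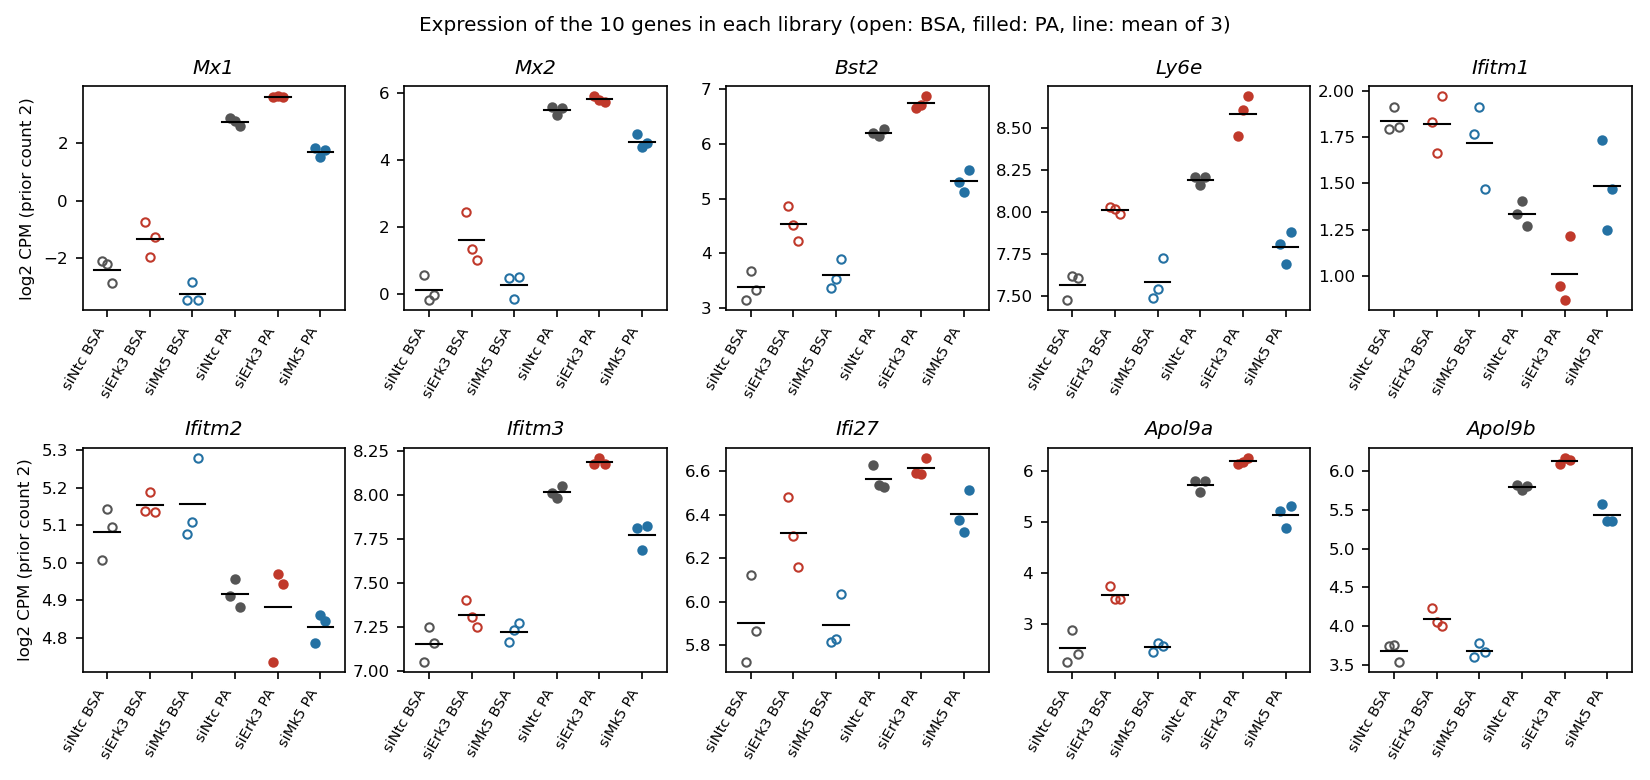
Level of each gene in each of the 18 libraries, as log2 CPM with a prior count of 2 (vertical axis, a separate scale per gene) for the 6 groups; open circles are BSA, filled circles PA, and lines the mean of 3 libraries. For Mx1, Mx2, Bst2, Ifitm3, Apol9a and Apol9b every PA library stands above every BSA library. The gap is least for Bst2 (siErk3 BSA up to 29.0 CPM, siMk5 PA from 34.5 CPM). Within PA the order for these genes is siMk5, siNtc, siErk3 with no overlap, which Ifitm1 and Ifitm2 do not follow. How many of all tested genes separate or order in these ways was not counted.

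**Figure D3:**
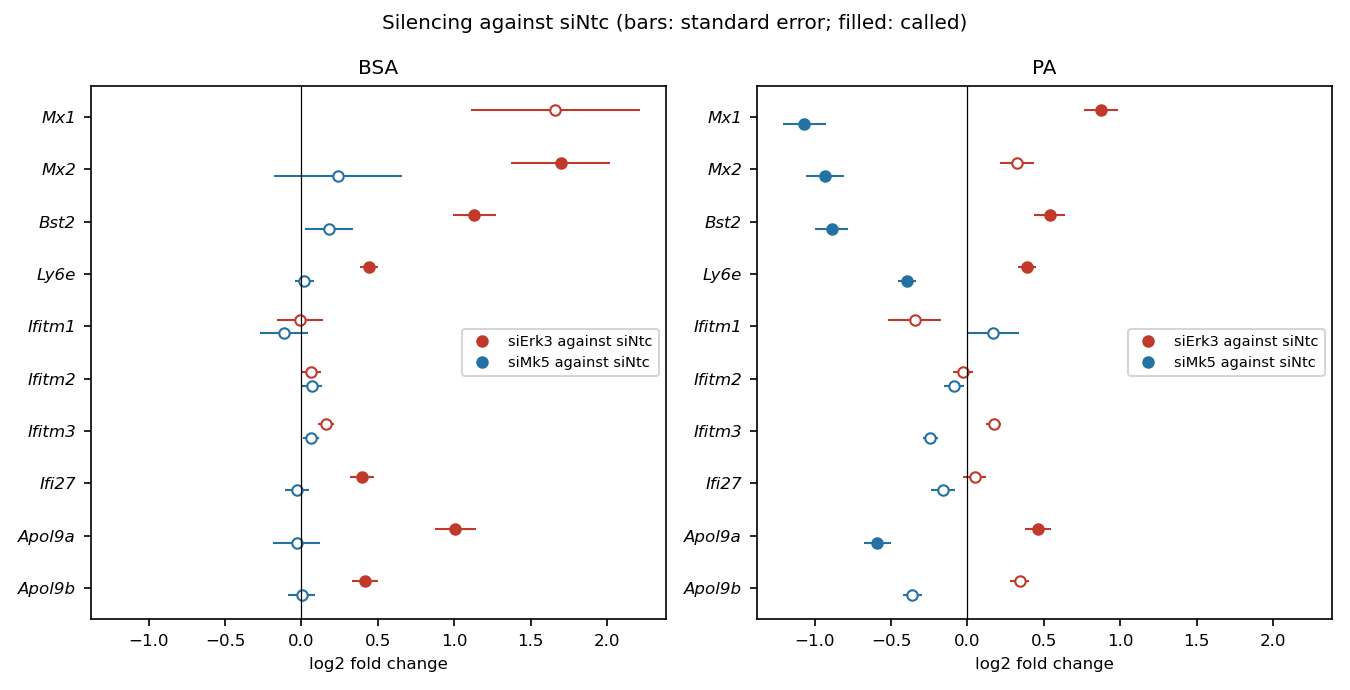
Log2 fold change of siErk3 (red) and siMk5 (blue) against siNtc in BSA (left) and PA (right), with bars of 1 standard error and filled circles for genes called. Red points lie to the right in BSA for Mx2, Bst2, Ly6e, Ifi27, Apol9a and Apol9b while blue points stay near 0, and in PA red and blue separate to opposite sides for Mx1, Bst2, Ly6e and Apol9a; Mx1 in siMk5 BSA is not drawn because it rests on 1 read pair.

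Mx1 (ENSMUSG00000000386, chr16:97248235-97264107, minus strand, GRCm39 as in all gene positions that follow) was barely expressed in BSA. The siNtc BSA libraries held 2, 3 and 1 read pairs, siErk3 BSA 12, 4 and 9, and siMk5 BSA 0, 1 and 0, in order of replicate. At this depth, the ratio of the summed rates was 3.28 for siErk3 over siNtc, with an exact 95% interval from 1.32 to 9.79, and 0.159 for siMk5 over siNtc, from 0.00346 to 1.31. These intervals cover counting error only, and in the fit across libraries neither difference passed (FDR = 0.208 for siErk3 and 0.696 for siMk5). In PA, Mx1 was at 7.29, 6.70 and 5.91 CPM in siNtc, 12.2, 12.3 and 12.1 CPM in siErk3, and 3.46, 2.75 and 3.30 CPM in siMk5. The groups did not overlap, and the 3 siErk3 libraries were almost equal. Mx1 was 1.83-fold higher in siErk3 than in siNtc (log2 0.87 ± 0.11, FDR = 1.72e-05) and lower in siMk5 (log2 -1.07 ± 0.14, FDR = 1.16e-05).

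Mx2 (ENSMUSG00000023341), its neighbour on the plus strand at chr16:97336508-97362100, was more abundant. In BSA it stood at 1.40, 0.792 and 0.898 CPM in siNtc, 5.37, 2.45 and 1.93 CPM in siErk3, and 1.31, 0.805 and 1.34 CPM in siMk5. Every siErk3 library was above every siNtc library, with replicate 1 well above the other two, whereas siMk5 overlapped siNtc. The siErk3 difference was 1.70 ± 0.32 on the log2 scale (FDR = 0.00254); without siNtc BSA replicate 2 it was 1.53 with an FDR of 0.052. In PA, Mx2 reached 47.3, 40.3 and 46.3 CPM in siNtc, 59.3, 55.4 and 53.0 CPM in siErk3, and 26.9, 20.7 and 22.5 CPM in siMk5. The siMk5 libraries were the lowest and did not overlap siNtc (log2 -0.93 ± 0.12, FDR = 1e-05; 0.0825 with DESeq2). The siErk3 libraries lay above siNtc without overlap, but the value of 0.33 ± 0.11 did not pass (FDR = 0.283).

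Bst2 (ENSMUSG00000046718, chr8:71986899-71990100, minus strand), the tetherin gene, was called in 3 of the 4 silencing comparisons. In BSA its levels were 8.71, 12.6 and 9.98 CPM in siNtc, 29.0, 22.7 and 18.7 CPM in siErk3, and 10.2, 11.5 and 14.8 CPM in siMk5. Only siErk3 stood apart, 2.19-fold above siNtc (log2 1.13 ± 0.14, FDR = 8.93e-06), while siMk5 overlapped siNtc (0.18 ± 0.16, FDR = 0.855). In PA the levels were 73.6, 70.6 and 77.6 CPM in siNtc, 101, 104 and 117 CPM in siErk3, and 39.5, 34.5 and 45.9 CPM in siMk5. No group overlapped another, with siErk3 highest and siMk5 lowest. Against siNtc, siErk3 was higher by 0.54 ± 0.10 (FDR = 0.00256; 0.107 with DESeq2) and siMk5 lower, at -0.89 ± 0.11 (FDR = 2.98e-06).

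Ly6e (ENSMUSG00000022587, chr15:74826900-74831754, plus strand) was abundant in every group and moved by smaller steps. Its BSA levels were 178, 196 and 195 CPM in siNtc, 262, 259 and 254 CPM in siErk3, and 180, 186 and 212 CPM in siMk5. The siErk3 libraries lay within a narrow band above both other groups (log2 0.44 ± 0.06 against siNtc, FDR = 2.61e-05). Its PA levels were 295, 287 and 296 CPM in siNtc, 349, 389 and 412 CPM in siErk3, and 224, 206 and 236 CPM in siMk5. All 3 groups were separate, with siErk3 at 0.39 ± 0.06 (FDR = 0.000137) and siMk5 at -0.40 ± 0.06 (FDR = 8.11e-05) against siNtc. Both PA values sit close to the fold threshold, and both calls were lost under an alternative. The siErk3 call was lost without siErk3 PA replicate 3 (0.34, FDR = 0.000757). The siMk5 call was lost with the 18S share in the model (-0.36, FDR = 0.000415) and without siMk5 PA replicate 2 (-0.35, FDR = 0.00384).

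The Ifitm genes lie together on chromosome 7, and their levels differed widely. Ifitm3 (ENSMUSG00000025492, chr7:140589499-140590683, minus strand), the most abundant member per length in all 6 groups, was at 133, 152 and 143 CPM in siNtc BSA, 169, 158 and 152 CPM in siErk3 BSA, and 144, 150 and 155 CPM in siMk5 BSA. These ranges overlapped. In PA it was at 259, 254 and 266 CPM in siNtc, 290, 297 and 290 CPM in siErk3, and 225, 206 and 227 CPM in siMk5, so that the groups no longer overlapped. The siMk5 difference of -0.24 ± 0.05 had an FDR of 0.00687 but did not reach the fold threshold, and siErk3 was at 0.17 ± 0.05 (FDR = 0.118).

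Ifitm2 (ENSMUSG00000060591, chr7:140534750-140535900, minus strand) ranged only from 26.6 to 38.7 CPM over all 18 libraries. None of the 4 silencing differences was called for it, the values lying between -0.09 and 0.07 with FDR of at least 0.793. Of its 655 exonic bases, 268 (40.9%) also belong to the gene model Gm45717 on the same strand, and read pairs that touch both models were left unassigned, which lowers its counts in every library. Ifitm1 (ENSMUSG00000025491, chr7:140547134-140549738, plus strand) was low, at 1.74 to 3.83 CPM, and its silencing differences ran from -0.35 to 0.17 with none called. Its siErk3 PA libraries, at 1.84, 1.74 and 2.23 CPM, lay below the siNtc PA libraries at 2.43, 2.55 and 2.32 CPM, a difference of -0.35 ± 0.18 that did not pass (FDR = 0.626).

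Ifi27 (ENSMUSG00000064215, chr12:103400470-103406498, plus strand) was higher in siErk3 than in siNtc in BSA, close to the fold threshold. Its BSA levels were 52.8, 69.6 and 58.2 CPM in siNtc, 89.4, 78.9 and 71.4 CPM in siErk3, and 56.2, 56.7 and 65.6 CPM in siMk5. The lowest siErk3 library lay just above the highest siNtc library, and the difference was 0.40 ± 0.08 (FDR = 0.00368). That call was lost without siNtc BSA replicate 1 (0.32, FDR = 0.054), without siNtc BSA replicate 3 (0.36) and without siErk3 BSA replicate 1 (0.32, FDR = 0.0503), and it fell below the fold threshold with edgeR's filterByExpr (0.378) or with the compared groups fitted alone (0.372). In PA it was at 98.8, 92.8 and 92.3 CPM in siNtc, 96.4, 96.0 and 101 CPM in siErk3, and 83.1, 79.9 and 91.3 CPM in siMk5. The siErk3 and siNtc libraries were mixed (0.05 ± 0.08, FDR = 0.94), and the siMk5 libraries lay below both at -0.16 ± 0.08, which did not pass (FDR = 0.715). The change of the siErk3 effect between media, -0.35 ± 0.11, had an FDR of 0.505, so the 2 media are not shown to differ.

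Apol9a (ENSMUSG00000057346, chr15:77287989-77295335, minus strand) and Apol9b (ENSMUSG00000068246, chr15:77613239-77620582, plus strand) are near copies. Of all 151-base stretches in their transcripts, 404 are common to both genes, 7.02% of those of Apol9a and 20.9% of those of Apol9b, so the split of reads between them is uncertain. In BSA, Apol9a was at 4.71, 7.29 and 5.25 CPM in siNtc, 13.4, 11.2 and 11.1 CPM in siErk3, and 5.41, 6.09 and 5.88 CPM in siMk5. Apol9b was at 13.3, 13.4 and 11.5 CPM in siNtc BSA, 18.6, 16.4 and 16.0 CPM in siErk3 BSA, and 11.99, 13.7 and 12.6 CPM in siMk5 BSA. For both genes siErk3 stood above the other groups and siMk5 was mixed with siNtc. The siErk3 difference was 1.01 ± 0.13 (FDR = 2.18e-05) for Apol9a and 0.42 ± 0.08 (FDR = 0.00419) for Apol9b, the latter no longer called without siNtc BSA replicate 3 (0.34, FDR = 0.0844) or without siErk3 BSA replicate 1 (0.36).

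In PA, Apol9a was at 55.7, 48.2 and 55.5 CPM in siNtc, 70.3, 72.7 and 76.6 CPM in siErk3, and 37.0, 29.3 and 39.6 CPM in siMk5. Apol9b was at 56.5, 53.9 and 55.7 CPM in siNtc PA, 68.1, 72.1 and 70.6 CPM in siErk3 PA, and 47.7, 40.8 and 40.9 CPM in siMk5 PA. Both genes had 3 separate groups in the same order. Apol9a passed both criteria, at 0.46 ± 0.08 in siErk3 (FDR = 0.00168) and -0.59 ± 0.09 in siMk5 (FDR = 8e-05). Apol9b had an FDR of 0.00172 in siErk3 and 0.00114 in siMk5, but its values of 0.34 ± 0.06 and -0.36 ± 0.06 lay under the fold threshold. With the counts of both genes added, so that the split plays no part, the siErk3 difference was 0.63 ± 0.08 in BSA (FDR = 1.72e-05) and 0.40 ± 0.06 in PA (FDR = 0.000276), and the siMk5 difference was -0.47 ± 0.07 in PA (FDR = 2.84e-05).

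Palmitic acid by itself raised most of the genes. In siNtc myotubes 8 of the 10 were called higher in PA than in BSA and 1 lower, where 15.5% of all tested genes were called higher and 15.1% lower. In siErk3 myotubes 7 were higher and 1 lower (backgrounds 15.8% and 16.3%), and in siMk5 myotubes 7 were higher (background 15.1%). For siNtc the rises were 5.50 ± 0.21 on the log2 scale for Mx2 (FDR = 9.99e-20), 3.17 ± 0.11 for Apol9a, 2.79 ± 0.13 for Bst2, 2.12 ± 0.08 for Apol9b, 0.86 ± 0.05 for Ifitm3, 0.64 ± 0.08 for Ifi27 and 0.62 ± 0.06 for Ly6e, each with an FDR of 3.28e-08 or less. Mx1 went from 6 read pairs over the 3 siNtc BSA libraries to 426 over the 3 siNtc PA libraries, a ratio of rates of 65.9 with a counting interval from 30 to 181. In siMk5 it went from 1 to 200 read pairs, a ratio of 197 whose interval, from 35 to 7825, is too wide to set beside that of siNtc.

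Ifitm1 was the member that fell, by 0.52 ± 0.16 in siNtc (FDR = 0.00948) and by 0.85 ± 0.16 in siErk3 (FDR = 4.38e-05), while its value of -0.24 ± 0.16 in siMk5 did not pass (FDR = 0.255). Ifitm2 was at -0.17, -0.27 and -0.33 in siNtc, siErk3 and siMk5, with FDR of 0.0337, 0.000761 and 0.000106 but below the fold threshold in each. Within 1 locus on chromosome 7, Ifitm3 rose and Ifitm1 fell in siNtc and siErk3 myotubes. Markers of other cell states also moved with PA. The 6 markers of proliferating or undifferentiated myoblasts summed to 870 to 944 CPM in the BSA libraries and 363 to 479 CPM in the PA libraries, and the myotube markers to 13100 to 16500 CPM and 12000 to 13800 CPM. The 4 adipocyte markers summed to 3.89 to 5.27 CPM and 6.12 to 8.15 CPM, nearly all of it Pparg, with 2 of the 4 at 0 in every library and Adipoq at 1 read pair in all; Pparg was called higher with PA in all 3 kinds of myotube. Of the 4 macrophage markers tested, 1 was called lower with PA in siNtc, 1 lower in siErk3 and 1 higher in siMk5. The 5 endothelial markers summed to 1.26 to 2.42 CPM, and 1 was called higher in siErk3, 1 in siMk5 and 0 in siNtc. In the directions of these calls, 15.1% to 16.3% of all tested genes were called. The part of all these markers in the PA results was not tested.

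**Figure D4:**
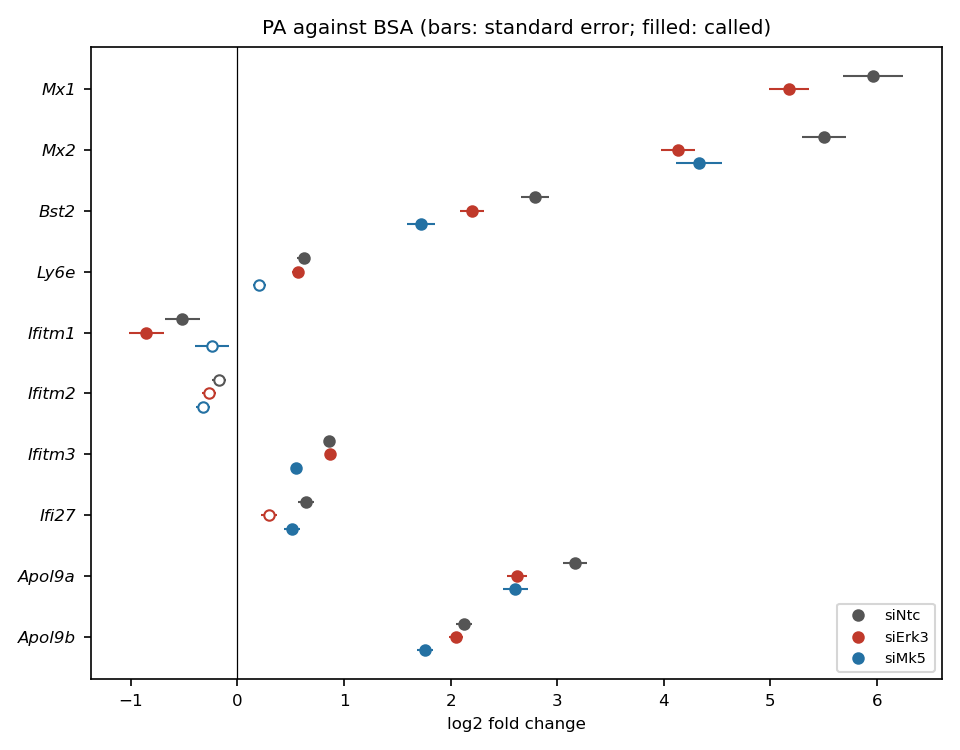
Log2 fold change of PA against BSA for each gene in siNtc (grey), siErk3 (red) and siMk5 (blue) myotubes, with bars of 1 standard error and filled circles for genes called. Mx2, Apol9a, Bst2 and Apol9b lie farther right than Ly6e, Ifitm3 and Ifi27 in each kind of myotube, as Mx1 does in siNtc and siErk3, and Ifitm1 and Ifitm2 lie left of 0; Mx1 in siMk5 is not drawn because its BSA level rests on 1 read pair.

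The order of the genes by level changed with the medium. Per kilobase of exon, in CPM per kb, siNtc BSA myotubes held Ifitm3 at 211 ± 14.5 (SD, n = 3), Ifitm2 at 51.6 ± 2.43, Ly6e at 50.2 ± 2.69, Ifi27 at 41.0 ± 5.84, Bst2 at 11.6 ± 2.21 and Apol9b at 7 ± 0.578. Below these came Ifitm1 at 3.18 ± 0.148, Apol9a at 0.966 ± 0.229, Mx2 at 0.285 ± 0.0906 and Mx1 at 0.0275 ± 0.0132. Ifitm2, Ly6e and Ifi27 overlapped as neighbours in this order, and the other neighbours did not. In siNtc PA the order was Ifitm3 at 383 ± 8.99, Bst2 at 81.8 ± 3.87, Ly6e at 77.3 ± 1.38, Ifi27 at 64.5 ± 2.45, Ifitm2 at 46.0 ± 1.20 and Apol9b at 30.4 ± 0.735, followed by Mx2 at 12.3 ± 1.05, Apol9a at 8.92 ± 0.714, Ifitm1 at 2.23 ± 0.105 and Mx1 at 1.75 ± 0.183, with no overlap between neighbours. Bst2 thus went from rank 5 to rank 2. In siMk5 PA it stood at 44.3 ± 6.30, below Ly6e at 58.7 ± 3.96 and Ifi27 at 57.8 ± 4.01 and overlapping Ifitm2 at 43.3 ± 1.18. The rank of Ifitm2 is uncertain, since over its 387 exonic bases that are not shared with Gm45717 its mean would be 87.4 in siNtc BSA and 77.8 in siNtc PA, the latter between Bst2 and Ly6e.

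Whether silencing acted differently in the 2 media was tested as an interaction. For siMk5, 2 of the 10 genes were called, both with a lower siMk5 effect in PA than in BSA (background 0.161%): Bst2 at -1.07 ± 0.19 (FDR = 0.00632) and Ly6e at -0.42 ± 0.08 (FDR = 0.0197). In Bst2 the siMk5 effect was 0.18 in BSA and -0.89 in PA, and in Ly6e it was 0.02 and -0.40. Ifitm3 was next at -0.31 ± 0.07, which did not pass (FDR = 0.0665). The 18S share, which was highest in siMk5 BSA, moved with this contrast; with that share in the model Bst2 was at -0.64 (FDR = 0.543) and Ly6e at -0.28 (FDR = 0.609), and neither was called. The Bst2 call was also lost without siMk5 BSA replicate 3 (-0.91, FDR = 0.0673), and the Ly6e call without siNtc BSA replicate 1 (-0.37, FDR = 0.107), siMk5 BSA replicate 3 (-0.34, FDR = 0.125), siNtc PA replicate 1 (-0.40, FDR = 0.0512) or siMk5 PA replicate 2 (-0.36, FDR = 0.112).

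For siErk3, edgeR's test called 0 of the 10 interactions (background 0.0367%), as did DESeq2, while 4 had an unadjusted p under 0.05. These 4 were Mx2 at -1.37 ± 0.35 (FDR = 0.269), Bst2 at -0.59 ± 0.17 (FDR = 0.419), Apol9a at -0.54 ± 0.16 (FDR = 0.412) and Ifi27 at -0.35 ± 0.11 (FDR = 0.505). The siErk3 effect on these 4 genes was thus numerically larger in BSA than in PA, a difference that did not pass the adjustment. The 4 were picked by these p-values, and the share of all tested genes under that level is not given here. Without the filter on low counts Mx2 at -1.36 ± 0.21 (FDR = 8.19e-08), Bst2 at -0.58 ± 0.10 (FDR = 3.57e-06) and Apol9a at -0.53 ± 0.12 (FDR = 0.00305) were called. These values stayed close to those with the filter, while their standard errors were smaller. The reason was not tested, and the share of all genes called in that setting is not given here. Apol9a was also called with the 18S share in the model (FDR = 0.0282), and Mx2 without siErk3 BSA replicate 3 (FDR = 0.0295).

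Set directly against each other, siErk3 myotubes held more RNA than siMk5 myotubes for 7 of the 10 genes in BSA (background 0.482%) and for 7 in PA (background 0.854%), and less for 0. In BSA the 7 were Mx1, Mx2, Bst2, Ly6e, Ifi27, Apol9a and Apol9b, and in PA Ifitm3 took the place of Ifi27. Mx1 in BSA stood at 25 against 1 read pairs over 3 libraries, a ratio of 20.6 with a counting interval from 3.38 to 847 (FDR = 0.00526; 0.0608 without siMk5 BSA replicate 1). In PA the differences were 1.94 ± 0.13 for Mx1 (FDR = 5.53e-12), 1.43 ± 0.11 for Bst2 (FDR = 4.14e-11), 1.26 ± 0.12 for Mx2 (FDR = 6.09e-09) and 1.05 ± 0.09 for Apol9a (FDR = 2.59e-10). Smaller ones were 0.79 ± 0.06 for Ly6e, 0.70 ± 0.06 for Apol9b and 0.41 ± 0.05 for Ifitm3, each with an FDR of 7.58e-07 or less. Ifitm3 fell below the fold threshold without siMk5 PA replicate 2 (0.375). The BSA count fell to 4 without siErk3 BSA replicate 1 or without siMk5 BSA replicate 1. These 2 groups also had the lowest and the highest 18S share, and with that share in the model 5 of the 7 were called. Mx2 at 1.45 (FDR = 0.243) and Apol9b at 0.53 (FDR = 0.201) no longer passed, although their differences were about as large as or larger than without it, at 1.46 and 0.42.

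The rest of the pathway is given from the ligand to the effectors, in lists also chosen with earlier results of these data known. Of 9 interferon genes, 1 had enough counts to test: Ifnb1, which encodes interferon beta, had 0 read pairs in all 9 BSA libraries. In PA it had 1, 2 and 4 read pairs in siNtc, 5, 7 and 5 in siErk3, and 1, 1 and 2 in siMk5. The siErk3 PA libraries were above the other PA libraries, but no silencing difference was called for these few counts. The rise from BSA to PA was called in siNtc (FDR = 0.0182) and siErk3 (FDR = 0.000447) and not in siMk5 (FDR = 0.0652). The 9 receptor and Janus kinase genes had a median log2 fold change between -0.051 and 0.06 in the 4 silencing comparisons with siNtc. With PA in siNtc 2 of the 9 rose (background 15.5%), Ifnar1 at 0.45 ± 0.05 (FDR = 1.99e-09) and Ifnar2 at 0.47 ± 0.07 (FDR = 1.2e-06). These 2 encode the chains of the type I interferon receptor. With PA in siErk3 1 of the 9 was called higher and 1 lower (backgrounds 15.8% and 16.3%). In siMk5 0 were called (backgrounds 15.1% and 14.6%).

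Of the 5 interferon transcription factor genes reported here, 3 were higher in siErk3 BSA (background 0.588%) and 3 lower in siMk5 PA (background 0.491%), namely Stat2, Irf9 and Irf7, while Irf1 and Irf3 were not called in either. Stat2 was at 0.46 ± 0.08 in siErk3 BSA (FDR = 0.000432) and -0.58 ± 0.06 in siMk5 PA (FDR = 7.94e-07), and Irf9 at 0.59 ± 0.11 (FDR = 0.00219) and -0.40 ± 0.09 (FDR = 0.0121). Irf7, which amplifies interferon induction, was at 1.52 ± 0.23 (FDR = 0.000125) and -0.93 ± 0.12 (FDR = 1.31e-05). In siErk3 PA, Stat2 at 0.14 ± 0.06 (FDR = 0.562), Irf9 at 0.18 ± 0.08 (FDR = 0.572) and Irf7 at 0.42 ± 0.11 (FDR = 0.08) did not pass. With PA in siNtc these 3 rose (background 15.5%), Irf9 by 2.16 ± 0.10, Stat2 by 2.32 ± 0.07 and Irf7 by 4.01 ± 0.18. Among 3 feedback inhibitors Usp18, which damps receptor signalling, was at 2.31 ± 0.30 in siErk3 BSA (FDR = 1.44e-05), 0.41 ± 0.10 in siErk3 PA (FDR = 0.045) and -1.06 ± 0.11 in siMk5 PA (FDR = 3.72e-07).

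Of 28 other antiviral effectors, 16 were higher and 0 lower in siErk3 BSA (background 0.588% higher), 8 were higher and 0 lower in siErk3 PA (0.432%), and 19 were lower and 0 higher in siMk5 PA (0.491% lower). Examples were Oas2, a sensor of double-stranded RNA, at 2.67 ± 0.28 in siErk3 BSA (FDR = 6.97e-07), Rsad2 (viperin) at 1.64 ± 0.10 in siErk3 PA (FDR = 1.21e-12), and Ifit3b at -1.21 ± 0.11 in siMk5 PA (FDR = 1.12e-07). Their medians were 0.762, 0.248 and -0.678 on the log2 scale. In siMk5 BSA 0 of the 28 were called, with a median of -0.011. With PA in siNtc 26 rose and 0 fell (background 15.5% higher), Ifit1 at 6.72 ± 0.20 (FDR = 1.46e-22) by the smallest FDR.

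Relatives of the 10 genes were counted in the same way. Of 28 genes of the Ifitm, apolipoprotein L, Ifi27-like, Ly6 and dynamin families, 19 could be tested. In siErk3 BSA 1 was higher (background 0.588%), Ifi27l2a at 1.28 ± 0.22 (FDR = 0.000682), and 1 lower (background 0.198%), Apol8 at -1.30 ± 0.18 (FDR = 4.94e-05). In siMk5 PA 1 was lower (background 0.491%), Ly6a at -0.56 ± 0.09 (FDR = 0.000344), and in siErk3 PA 0 were called. With PA in siNtc 4 rose and 5 fell (backgrounds 15.5% and 15.1%), among them the dynamin gene Dnm1 at -0.74 ± 0.07 (FDR = 1.85e-10).

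Genes with the most similar profile were sought among non-members of at least 1 CPM on average, for the 7 members whose group means spanned more than 1 on the log2 scale. The measure was the root mean square difference of gene-centred log2 CPM over the 18 libraries, which grows with a member's own span and so does not rank one member's neighbours against another's. Ifitm3 was nearest to Shisa5 (0.054) and Tor1aip2 (0.0805), and Apol9b to Ifi211 (0.107) and Stat2 (0.108). Ly6e was nearest to the antigen presentation genes H2-D1 and B2m, both at 0.119. Apol9a was nearest to Rtp4 (0.169) and Ifi203 (0.227), Bst2 to Xaf1 (0.225) and Parp14 (0.237), Mx2 to Isg15 (0.262) and Ifi44 (0.451), and Mx1 to Ifit3b (0.461) and Usp18 (0.512). Pearson's r of these pairs over the 18 libraries ran from 0.955 for Ly6e and H2-D1 to 0.996 for Apol9b and Ifi211. The libraries share depth and treatment, and the 6 groups set most of each profile.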

How the data were processed

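The authors deposited raw counts, as read pairs assigned to each gene in 18 libraries. According to the methods, reads were trimmed with cutadapt and TrimGalore and aligned with STAR to GRCm39. The file header names featureCounts 2.0.0, the Ensembl 105 annotation, strand setting 2 and a minimum mapping quality of 3, whereas the labels name mm10, so gene positions are those of the count table. Pairs overlapping exons of 2 genes on the same strand were not counted. A second deposited table of log2 values derived from these counts was not used. The tables held 0 columns from samples outside the series.

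Symbols came from GENCODE M39, and groups from the sample labels. Genes summing to 10 counts or more (21772) entered a TMM normalization and were fitted with edgeR 4.0.16 in R 4.3.3 by 1 quasi-likelihood model of 6 groups; interactions were contrasts of it. Standard errors follow from the F statistic. A call needs an FDR below 0.05 and a fold change above 1.3, the criteria of the methods. CPM uses TMM-adjusted totals, and total counts of 13041979 to 28496727 set the counting error. The fit was first tested on simulated data of 21363 genes, all with the same dispersion. In siErk3 against siNtc in BSA 96% of 200 altered genes were recovered, with 10 false calls among the unaltered genes. Replicates of a group differed beyond counting noise in every pair (chi-square per degree of freedom of at least 2.75).

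Members, pathway lists and tests were chosen with earlier results of these data known. All 10 members are named, with Mapk6 and Mapkapk5 as the silenced genes. Of each pathway list, genes called in a comparison were eligible, at most 4 by smallest FDR, and Stat2 and Irf9 in any case; 1 listed gene is not reported here. Most similar genes were the 2 with the smallest root mean square difference. Alternatives were DESeq2 1.42.0, other size factors and filters, a replicate block, the compared groups alone, the FDR criterion alone, summed Apol9 counts, the 18S share as covariate, and each library left out in turn.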

Additional observations from a re-analysis of the deposited data

Results flagged for a closer look

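The effect of siMk5 differed between PA and BSA for 2 genes, by the interaction term of edgeR's quasi-likelihood fit. Bst2 had an interaction of -1.07 ± 0.19 on the log2 scale (FDR = 0.00632): its siMk5 libraries were mixed with siNtc in BSA and lay below all siNtc libraries in PA. Ly6e had an interaction of -0.42 ± 0.08 (FDR = 0.0197), with the same arrangement of libraries. Neither was called with the 18S share as a covariate.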

How the results depend on the processing

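Of the 55 member differences called over the 11 comparisons, 0 changed direction under any alternative, 40 kept their call under all of them, 8 lost it under an alternative other than a left-out library and 13 with a library left out. Of the 55 not called, 15 changed sign under an alternative and 13 were called under at least 1, 8 by the FDR criterion alone and 6 under others. With the library left out varying, the members called ranged from 4 to 7 for siErk3 against siMk5 in BSA, from 0 to 1 for the interaction of siErk3 with PA and from 0 to 2 for that of siMk5. These interactions had 3 and 4 calls without the filter on low counts and 1 and 0 in the model that includes the 18S share. The cause was not tested, and the share of all genes called in these settings is not given here. All other counts stayed within 1.5 times. In their deviations from the group means, same-numbered libraries of different groups correlated from -0.607 to 0.516 (45 pairs, mean -0.007, over 10553 genes). Libraries with different numbers were not compared, so these values cannot settle whether the replicate numbers of the labels pair the libraries. With a replicate block the members called were 6 for siErk3 and 0 for siMk5 in BSA, 4 and 5 in PA, and 0 and 2 for the interactions, as without it. Scaling by DESeq2 size factors moved the median of all genes by at most 0.0149. Depth limits Mx1 in BSA, Ifnb1 and Mapkapk5.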
